A study of Rattus norvegicus with 11 samples.

Results

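Transcripts of 10 antioxidant enzyme genes (Sod1, Sod2, Cat, Gpx1, Gpx3, Prdx3, Prdx5, Txn2, Nqo1 and Hmox1) were examined in soleus, a slow postural muscle of the hind limb, of 11 male Sprague Dawley rats aged 12 months. The genes were taken by symbol from the table of read counts, which held all 10 among its 16810 rows, and all 10 passed the filter on low counts that left 10814 genes for testing. The high-fat group was 5 offspring of mothers fed a diet rich in lard fat and sucrose for 3 weeks ahead of mating, then while pregnant and nursing. The control group was 6 offspring of mothers that ate a normal fat diet over the same period. All offspring ate standard chow from weaning at day 21, and each came from a litter of its own, so the animal was the replicate. The libraries held 10156225 to 15362013 counts, and the 10 genes had from 82 counts (Hmox1 in high-fat animal 2) to 31700 counts (Gpx1 in control animal 6). The summed level of 6 slow fibre markers was 49851 to 72300 CPM in high-fat animals and 54507 to 74029 CPM in control animals, and that of 8 fast fibre markers was 3327 to 26896 CPM in high-fat animals and 1960 to 35243 CPM in control animals (CPM, read counts scaled to the depth of the library, with libraries scaled by trimmed mean of M values, TMM).

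Working muscle makes superoxide in the respiratory chain, and superoxide dismutases turn it into hydrogen peroxide. Catalase, the glutathione peroxidases and the peroxiredoxins then remove the peroxide, the peroxiredoxins drawing their electrons from thioredoxins. Nqo1, a quinone reductase, and Hmox1, which breaks down haem, are known targets of the stress-responsive transcription factor Nrf2.

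Of the 10 genes, 9 had a promoter in the RefSeq table of build GRCr8, and Hmox1 had none and was not searched. The 250 bases before the start site are given for the 5 genes in the pairs whose levels were most closely related across the animals (Prdx5 with Txn2, Sod1 with Prdx5, and Cat with Nqo1, described further on). They are written along the gene's own strand, and capitals mark matches on either strand to 3 short motifs. The GC box was searched as CCGCCC. The core of the antioxidant response element, through which Nrf2 acts, was searched as TGACNNNGC. The TATA box core was searched as TATAAA.
Prdx5, chr1:213532028-213532277, minus strand: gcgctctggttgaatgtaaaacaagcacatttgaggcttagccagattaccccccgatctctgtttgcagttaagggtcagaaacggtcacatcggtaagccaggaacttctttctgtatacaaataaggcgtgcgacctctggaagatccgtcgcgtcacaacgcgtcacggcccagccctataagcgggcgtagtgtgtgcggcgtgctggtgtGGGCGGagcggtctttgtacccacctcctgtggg
Txn2, chr7:111390941-111391190, minus strand: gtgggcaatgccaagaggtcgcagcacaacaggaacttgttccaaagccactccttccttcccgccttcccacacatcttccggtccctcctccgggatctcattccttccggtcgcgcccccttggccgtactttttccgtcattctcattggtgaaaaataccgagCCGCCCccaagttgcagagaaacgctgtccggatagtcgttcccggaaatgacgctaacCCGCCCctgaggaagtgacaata
Sod1, chr11:42942573-42942822, plus strand: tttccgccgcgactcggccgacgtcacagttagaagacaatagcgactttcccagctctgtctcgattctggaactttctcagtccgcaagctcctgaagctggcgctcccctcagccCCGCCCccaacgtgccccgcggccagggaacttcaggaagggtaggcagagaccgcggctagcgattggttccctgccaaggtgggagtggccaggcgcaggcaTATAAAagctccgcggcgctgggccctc
Cat, chr3:110329527-110329776, minus strand: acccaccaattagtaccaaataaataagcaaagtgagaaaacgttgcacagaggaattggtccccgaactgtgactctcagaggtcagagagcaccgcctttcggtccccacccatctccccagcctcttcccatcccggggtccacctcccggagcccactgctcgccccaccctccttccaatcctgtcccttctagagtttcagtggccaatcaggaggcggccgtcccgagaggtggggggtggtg
Nqo1, chr19:52220268-52220517, minus strand: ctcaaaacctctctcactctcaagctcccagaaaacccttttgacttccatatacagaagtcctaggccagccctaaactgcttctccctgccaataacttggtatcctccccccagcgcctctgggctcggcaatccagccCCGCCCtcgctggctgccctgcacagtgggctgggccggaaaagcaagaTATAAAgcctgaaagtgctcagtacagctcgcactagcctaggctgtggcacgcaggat
The GC box was found in 8 of the 9 promoters, the exception being Cat, and in 58.9% of 8447 promoters of tested genes (30.5% of all 33469 in the table). TATAAA lay 28 bases before the start of Sod1 and 59 bases before that of Nqo1, and it was found in 6.46% of the promoters of tested genes (12.9% of all). The antioxidant response element core matched in 1 of the 9, Sod2, starting 35 bases before its start, and in 12.7% of the promoters of tested genes (10.1% of all). No overlap occurred between matches in the 5 promoters shown. These matches are a description of the letters in this window and carry no statement on which factors bind there. Bases farther upstream were not searched.

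The spread of the genes over the 11 animals differed widely. Sod1, the cytosolic copper-zinc dismutase, was the most even, at 289 to 400.0 CPM (coefficient of variation 11.1%). Sod2, the manganese dismutase of the mitochondrial matrix, varied by 13.0% (402 to 600.1 CPM), and Prdx3, a peroxiredoxin of the same compartment, by 14.6% (179 to 290.1 CPM). In TMM-scaled CPM, Txn2, the mitochondrial thioredoxin, Cat, the peroxisomal catalase, and Gpx1, the main intracellular glutathione peroxidase, lay close together at 17.1%, 17.5% and 18.0%. Prdx5, a peroxiredoxin of mitochondria, peroxisomes and cytosol, varied by 19.9% and Nqo1 by 25.2%. Gpx3, the secreted glutathione peroxidase of plasma, varied by 32.1% (314 to 995 CPM), and Hmox1 by 55.9% (8.74 to 43.4 CPM). The median over all tested genes was 18.7%, so 4 of the 10 genes exceeded it in TMM-scaled CPM. By edgeR's biological coefficient of variation within diet groups, which leaves out counting error, Cat (19.7%) and Gpx1 (19.4%) also exceeded the median (19.1%). Without TMM scaling the SD was 42.2 CPM for Txn2, 220 for Gpx1 and 50.3 for Prdx5. With it, the SD was 70.5, 330 and 75.2 CPM, so these spreads depended on the scaling. For Cat the SD was 82.6 CPM without and 75.5 CPM with TMM scaling. Levels are not compared between genes, because CPM is not divided by transcript length. Counting error was a small part of this spread even for Hmox1, whose lowest library held 82 counts (8.07 CPM before TMM scaling, exact 95% interval 6.42 to 10.0) and whose highest held 681 (44.3 CPM, 41.1 to 47.8). Such intervals cover counting error only.

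**Figure D1:**
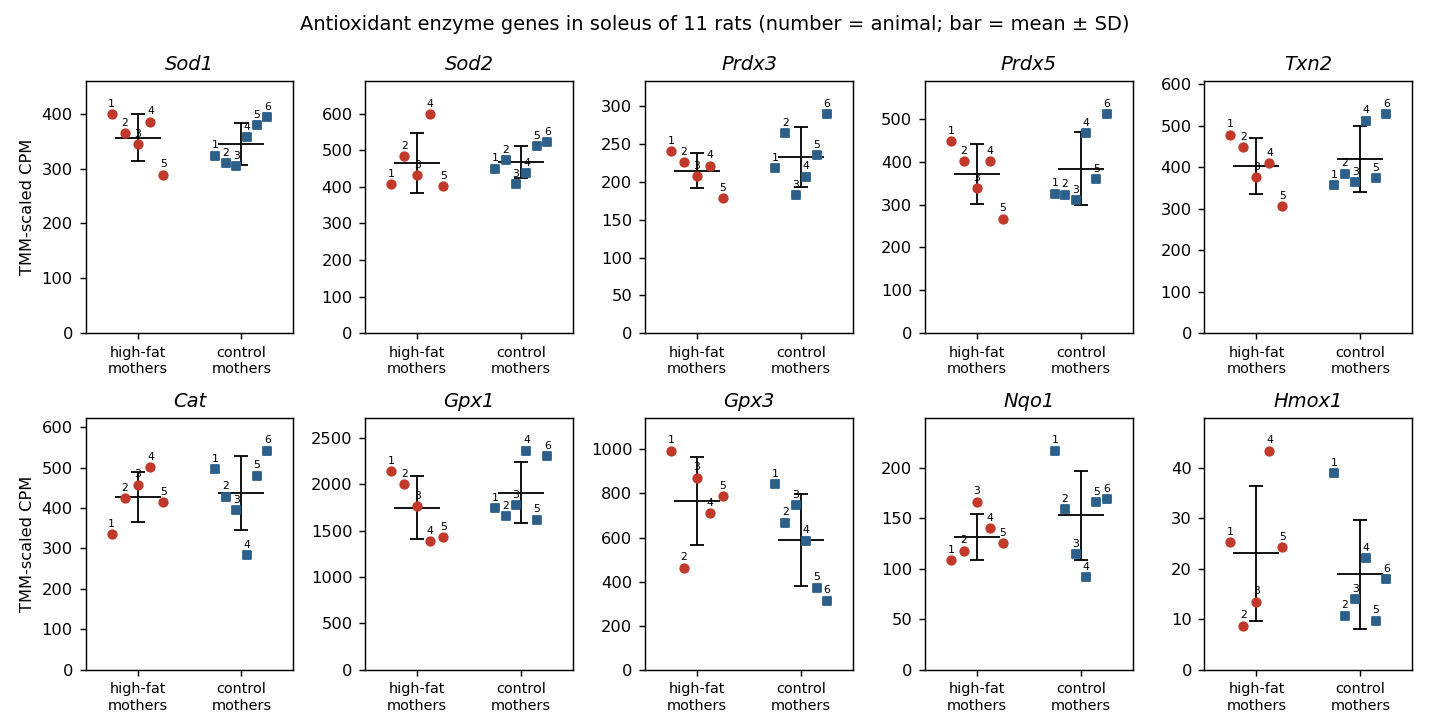
TMM-scaled CPM (y axis, from 0) of the 10 genes in each animal, high-fat group left (circles, n = 5) and control group right (squares, n = 6), with the mean ± SD as bars and the animal's number at each point. The groups overlap for every gene, and Hmox1 spans the widest relative range, 8.74 to 43.4 CPM.

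The first comparison asked whether the mother's diet was reflected in these transcripts. Of the 10 genes, 3 had a higher mean and 7 a lower mean in the high-fat group, and none was called by the edgeR quasi-likelihood F test after Benjamini-Hochberg adjustment over all 10814 genes (0% of all tested genes passed). At an unadjusted p under 0.05 there were 0 of the 10, against 4.84% of all tested genes, and DESeq2, limma voom and edgeR's likelihood ratio test also gave 0 by either measure. The median log2 fold change was -0.04 over the 10 genes and 0.00 over all tested genes, and 50.9% of tested genes had a positive sign. In none of the 10 did the groups separate, against 0.37% of tested genes in which they did.

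The largest differences were in the genes that varied most. Gpx3 levels were 995, 463, 872, 709 and 788 CPM in the high-fat group (animals 1 to 5), against a lowest, median and highest of 314, 627 and 841 CPM in the control group. High-fat animals 1 and 3 lay above every control animal, and animal 2 lay below the control median. The log2 fold change was 0.38 ± 0.26 (SE; means 766 ± 199 CPM in the high-fat group, n = 5, and 588 ± 208 CPM in the control group, n = 6, SD; adjusted p = 0.974). It stayed positive without any 1 animal (0.25 to 0.52), the lowest value being without control animal 6. Hmox1 had 25.3, 8.74, 13.5, 43.4 and 24.4 CPM in high-fat animals 1 to 5, against 9.73, 16.0 and 38.9 CPM as the lowest, median and highest in the control group. Its highest and its lowest animal were both in the high-fat group. The log2 fold change of 0.30 ± 0.41 (mean 23.1 ± 13.4 CPM in the high-fat group and 18.9 ± 10.8 CPM in the control group; adjusted p = 0.976) was -0.06 without high-fat animal 4 and was 0.64 without control animal 1. Nqo1 had 109, 118, 167, 141 and 125 CPM in high-fat animals 1 to 5, against 91.8, 163 and 217 CPM as the lowest, median and highest in the control group. All 5 high-fat animals lay within the control range, and only animal 3 was above the control mean. Its log2 fold change was -0.22 ± 0.19 (mean 132 ± 22.7 CPM in the high-fat group and 153 ± 44.3 CPM in the control group; adjusted p = 0.974), or -0.09 without control animal 1.

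Among the dismutases the groups were nearly level. Sod1 had 400.0, 365, 344, 386 and 289 CPM in high-fat animals 1 to 5, against 305, 341 and 395 CPM as the lowest, median and highest in the control group. High-fat animals 1 and 5 were the highest and the lowest of all 11. The log2 fold change was 0.05 ± 0.11 (adjusted p = 0.985). Sod2 had 407, 484, 433, 600.1 and 402 CPM in high-fat animals 1 to 5, against 409, 462 and 523 CPM as the lowest, median and highest in the control group. High-fat animal 4 alone stood above the control range, and the log2 fold change was -0.0068 ± 0.12 (adjusted p = 0.995).

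Prdx3, Prdx5, Txn2, Gpx1 and Cat had slightly lower means in the high-fat group, within their errors. Prdx3 averaged 215 ± 23.4 CPM in the high-fat group and 233 ± 39.2 CPM in the control group (log2 fold change -0.12 ± 0.13, adjusted p = 0.976). Prdx5 had 449, 402, 339, 402 and 268 CPM in high-fat animals 1 to 5, against 311, 343 and 512 CPM as the control group's lowest, median and highest. The log2 fold change was -0.04 ± 0.17 (adjusted p = 0.990). For Txn2 the high-fat animals had 479, 448, 376, 409 and 306 CPM, against 356, 379 and 529 CPM as the lowest, median and highest in control animals, and the log2 fold change was -0.06 ± 0.15 (adjusted p = 0.985). For Prdx3, Prdx5 and Txn2 alike, high-fat animal 5 was the lowest of all 11 animals and control animal 6 the highest. Gpx1 averaged 1745 ± 339 CPM in the high-fat group and 1910.4 ± 333 CPM in the control group (log2 fold change -0.13 ± 0.16, adjusted p = 0.976), and high-fat animals 4 and 5 lay below every control animal. Cat had 335, 425, 458, 501 and 414 CPM in high-fat animals 1 to 5, against 284, 454 and 542 CPM as the lowest, median and highest in the control group. Every high-fat animal lay inside the control range, and the log2 fold change was -0.04 ± 0.16 (adjusted p = 0.991).

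**Figure D2:**
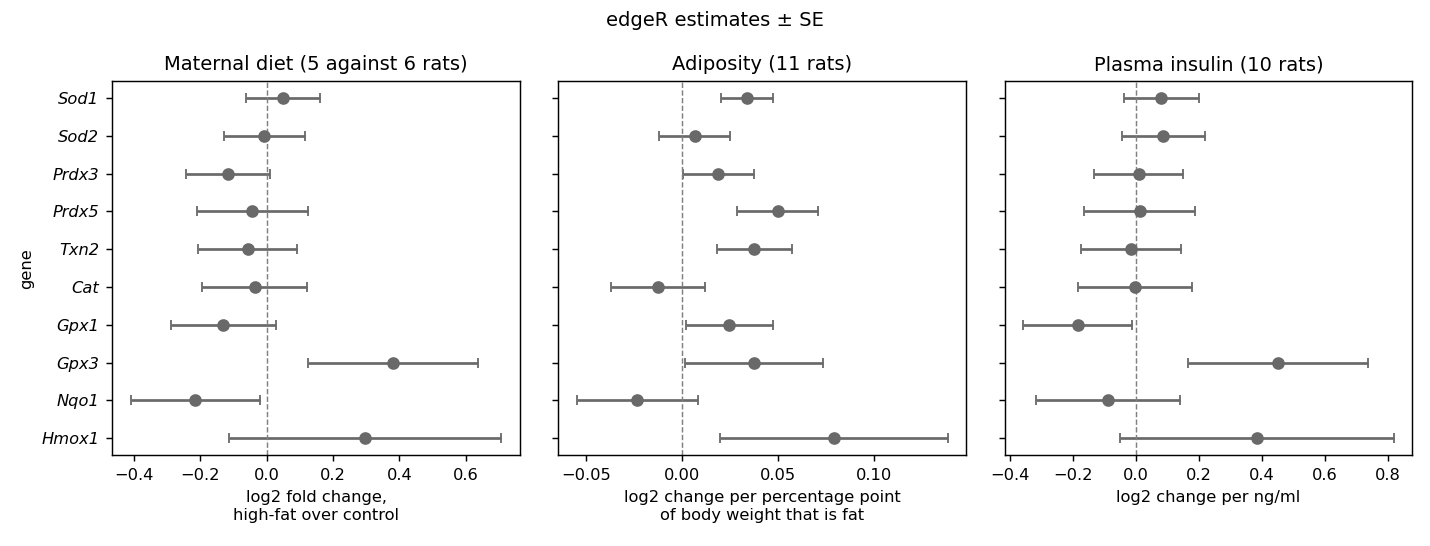
edgeR estimates ± SE (x axes, log2 units) for each gene (y axis): high-fat over control fold change (left), slope per percentage point of body weight that is fat (middle) and slope per ng/ml of plasma insulin (right). Gpx3 has the highest fold change of the 10 (0.38 ± 0.26), and the slopes of Sod1 and Prdx5 on adiposity lie farthest from 0 relative to their SE.

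The second comparison set the transcripts against the animals' own adiposity, taken as total fat over body weight in the labels. It ran from 4.51% to 16.3% in high-fat animals and from 3.74% to 8.52% in control animals, with means of 9.41 ± 4.42% and 6.02 ± 1.70% in the high-fat and the control group (SD). Of the 10 slopes, 8 were positive, against 47.4% of all tested genes, with a median of 0.029 per percentage point, against -0.0017 over all tested genes (log2 scale). None passed the adjusted test, which 0.00925% of tested genes did (1 gene, Pnpla2, a triglyceride lipase, with a slope of 0.11 ± 0.015 and adjusted p = 0.0377, named after its values were seen). It passed in only 2 of the 11 fits that left out 1 animal. At an unadjusted p under 0.05 there were 2 of the 10, Sod1 and Prdx5, against 8.64% of tested genes. DESeq2 and limma voom also called 0 of the 10 after adjustment and found 2 at an unadjusted p under 0.05.

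The slope of Sod1 was 0.034 ± 0.013 log2 units per percentage point of fat, which did not pass (adjusted p = 0.492). It had 400.0 CPM in the animal with the most fat, high-fat animal 1, and 305 CPM in the animal with the least, control animal 3. Prdx5 had a slope of 0.050 ± 0.021 (adjusted p = 0.528), with 449 CPM in high-fat animal 1 and 311 CPM in control animal 3. Txn2 had 0.038 ± 0.020 (adjusted p = 0.612). Hmox1 had 0.079 ± 0.059 (adjusted p = 0.724), or 0.041 with high-fat animal 4 left out and 0.15 with animal 1 left out. Gpx3 had 0.037 ± 0.036, and the other 5 slopes lay closer to 0 than that of Sod1. With the mother's diet as a covariate, which reads the slope within diets, Sod1 had 0.041 ± 0.015, Prdx5 0.071 ± 0.022 and Txn2 0.056 ± 0.020, with adjusted p of 0.370, 0.276 and 0.352. The Sod1 slope ran from 0.029 to 0.056 and that of Prdx5 from 0.040 to 0.090 when 1 animal was left out, the highest value of each being without high-fat animal 1. The unadjusted p was no longer under 0.05 for Sod1 without high-fat animal 5 or control animal 2 or 3, and for Prdx5 without high-fat animal 5 or control animal 1, 2, 3 or 5. It was also no longer under 0.05 for Sod1 with library size scaling (slope 0.021), nor for Sod1 or Prdx5 with abdominal fat in g in place of percent fat. The slope of Txn2 was 0.063 without high-fat animal 1. Its unadjusted p was under 0.05 with diet as covariate, with total fat in g, with log2 of percent fat and without control animal 4. An unadjusted p under 0.05 was also found for Sod2 without high-fat animal 1 (slope 0.058) and for Hmox1 with abdominal fat in g. None of these passed after adjustment. Without high-fat animal 1 the slopes of Cat (0.041 in place of -0.013), Nqo1 (0.021 in place of -0.023) and Gpx3 (-0.024 in place of 0.037) changed sign.

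**Figure D3:**
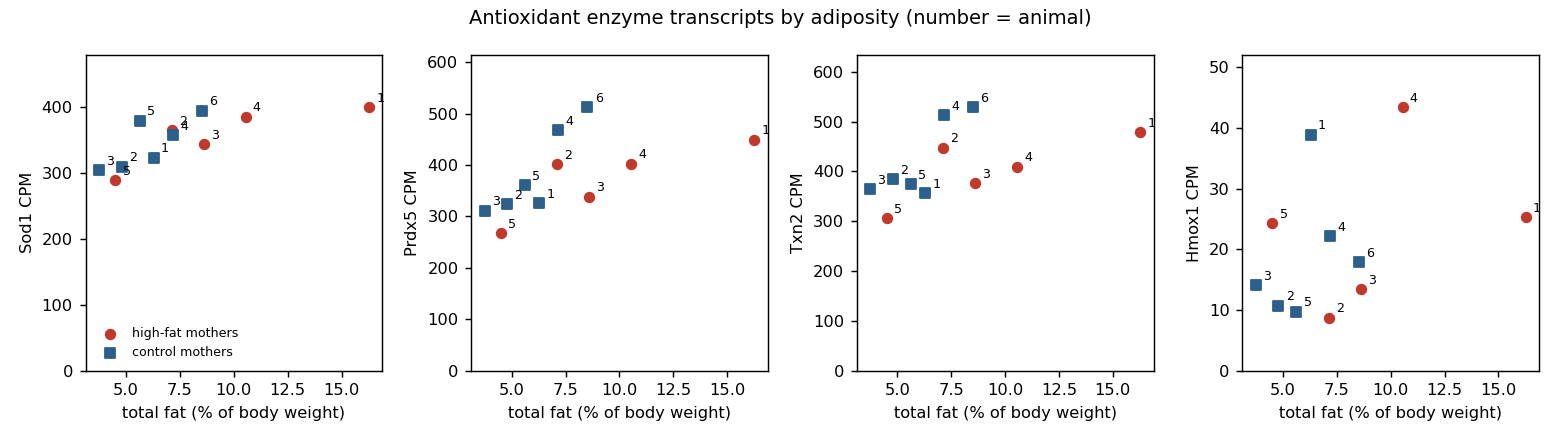
CPM (y axes, from 0) of Sod1, Prdx5, Txn2 and Hmox1 against total fat as a percentage of body weight (x axes), with high-fat animals as circles and control animals as squares. High-fat animal 1 stands alone at 16.3% fat, and the other 10 animals lie between 3.74% and 10.6%.

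Plasma insulin was available for 10 animals, from 1.57 to 2.65 ng/ml in 4 high-fat animals and from 1.36 to 2.08 ng/ml in 6 control animals. High-fat animal 5 had no value and was left out of this fit. No slope passed the adjusted test (0% of all tested genes did), and 0 of the 10 had an unadjusted p under 0.05, against 3.5% of tested genes, with DESeq2 and limma voom also at 0 of the 10 by either measure. Positive slopes numbered 6 of 10, against 48.5% of tested genes, and the median was 0.010 log2 units per ng/ml over the 10 and -0.0063 over all tested genes. Gpx3 had the largest estimate, 0.45 ± 0.29 per ng/ml, and ran from 0.33 to 0.71 without 1 animal. Hmox1 had 0.38 ± 0.43, which was -0.33 without high-fat animal 4 and 0.97 without control animal 1. Without control animal 1 the unadjusted quasi-likelihood p was 0.0280 for Gpx3 and 0.0253 for Hmox1. With the letter of the animal's name as covariate it was 0.0454 for Gpx3. None of these passed after adjustment. Gpx1 had -0.18 ± 0.17, which was -0.023 without high-fat animal 4, and the slopes of the other 7 were smaller than their SE. The adjusted p was 1.00 for each of the 10.

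Pearson's r between the genes ran from -0.56 to 0.97, and whether these values differ from each other was not tested. Prdx5 and Txn2 moved together most closely across the 11 animals (Pearson's r = 0.97, permutation p = 1e-05, the smallest that 100000 pairings can give; Spearman's rho = 0.91, p = 0.00029). Sod1 followed Prdx5 (r = 0.87, permutation p = 0.00066; rho = 0.88, p = 0.00067). Cat and Nqo1 moved together as well (r = 0.84, permutation p = 0.0008; rho = 0.87, p = 0.00088). Cat with Sod2 did not pass, by r (0.605, permutation p = 0.0487, adjusted p = 0.250) or by rho (0.75, permutation p = 0.0111, adjusted p = 0.100). The r of Cat was -0.15 with Prdx5 and -0.28 with Txn2, but 0.72 and 0.56 without the 2 animals farthest from the median of Cat. Over the 45 pairs the adjusted p by Pearson's r was 0.00045 for Prdx5 with Txn2. It was 0.012 for Sod1 with Prdx5 and 0.012 for Cat with Nqo1. By Spearman's rho, in the same order, it was 0.0131, 0.0132 and 0.0132. The pair of Gpx1 and Txn2 (r = 0.83, permutation p = 0.00192, adjusted p = 0.0216), passed by Pearson's r but not by rank (rho = 0.68, permutation p = 0.0255, adjusted p = 0.164). For each pair, r was also taken without the 2 animals farthest from the median of the gene named first. It was then 0.94 for Prdx5 with Txn2, 0.76 for Sod1 with Prdx5, 0.69 for Cat with Nqo1 and 0.67 for Gpx1 with Txn2. The adjusted p of Sod1 with Prdx5 was 0.0901 without high-fat animal 5 (r = 0.81), and that of Cat with Nqo1 was 0.0880 without control animal 4 (r = 0.76). Without high-fat animal 5 no pair passed by rank, and without control animal 3 only 1 did. Sod2 and Gpx3 tended in opposite directions (r = -0.56, permutation p = 0.0760, adjusted p = 0.306). All of these values share a library and its scaling, so they describe these 11 animals. The share of pairs of other tested genes that would pass was not computed.

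**Figure D4:**
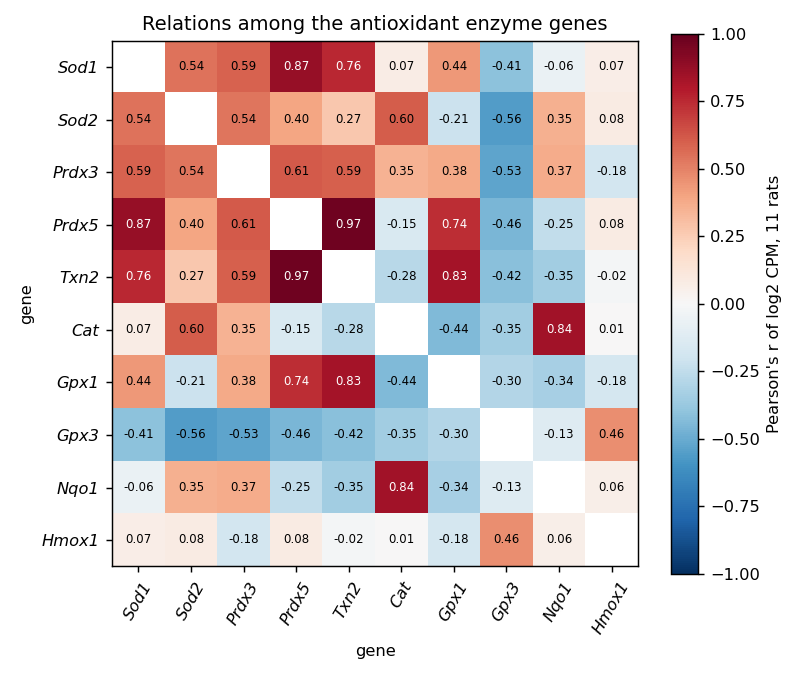
Pearson's r of log2 CPM over 11 rats for each pair of the 10 genes (both axes list the genes), coloured from -1 (blue) to 1 (red). Prdx5 and Txn2 stand at 0.97 and Cat and Nqo1 at 0.84, while Gpx3 has a negative r with every gene except Hmox1 (0.46).

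Because several of these enzymes act in mitochondria, each gene was set beside a score of nuclear oxidative phosphorylation genes (OXPHOS, 44 genes). Because Hmox1 is strongly expressed by macrophages, each was also set beside a score of 11 macrophage markers. A score is the mean over its genes of log2 CPM minus the gene's mean over animals. In bulk muscle, fewer cells of a type and less RNA per cell cannot be told apart. Txn2 followed the OXPHOS score most closely (r = 0.92, permutation p = 4e-05, adjusted over 20 relations 0.0005; rho = 0.90, p = 0.0005, adjusted 0.0098), and Prdx5 did so almost as closely (r = 0.91, permutation p = 5e-05, adjusted 0.0005; rho = 0.85, p = 0.00147, adjusted 0.0098). Without the 2 animals farthest from the median score, r was 0.83 for Txn2 and 0.80 for Prdx5, and after subtraction of each diet group's mean it was 0.93 and 0.92. Gpx1 (r = 0.77, permutation p = 0.00562, adjusted 0.0309; rho = 0.71, p = 0.0183, adjusted 0.0670) and Sod1 (r = 0.72, permutation p = 0.0113, adjusted 0.0452; rho = 0.70, p = 0.0201, adjusted 0.0670) passed by Pearson's r alone. The Gpx1 relation did not pass without high-fat animal 2, 3 or 5 or control animal 4, 5 or 6 (adjusted p up to 0.0966). That of Sod1 did not pass without high-fat animal 2, 3 or 5 or control animal 1, 3, 5 or 6 (adjusted p up to 0.255). The other enzymes of the matrix did not pass, with r = 0.67 for Prdx3 (permutation p = 0.0226, adjusted 0.0645; 0.27 without the 2 farthest animals) and 0.40 for Sod2 (permutation p = 0.222, adjusted 0.357). Whether they differ from Txn2 in this was not tested. The share of all tested genes that would pass with either score was not computed. Cat (r = -0.13, permutation p = 0.711) and Nqo1 (r = -0.11, permutation p = 0.749) did not pass. Without the 2 animals farthest from the median score, their r was -0.58 and -0.49. In the pairs above, the animals left out were chosen by a gene and not by the score.

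The scaling of the libraries moved with this pattern. The 4 libraries with the lowest TMM factors, high-fat animals 1 and 2 and control animals 4 and 6, were the 4 with the highest Txn2 and the 4 with the highest Gpx1, and held 3 of the 4 highest Prdx5 values. Without TMM scaling, 3 of these 4 libraries were among the 4 highest for each of the 3 genes. The part of the scaling in the relations was not tested. The same libraries had the highest summed OXPHOS levels in TMM-scaled CPM, with 29081 and 31965 summed CPM in high-fat animals 1 and 2 and 36816 and 36793 in control animals 4 and 6, against 20343 in high-fat animal 5, which had the lowest Txn2 and Prdx5. Without TMM scaling, control animals 4 and 6 were still the highest, at 33834 and 32985, high-fat animal 2 had 29531 and high-fat animal 1 had 27529, below control animal 2 at 29610 and high-fat animals 3 and 4 at 29016 and 28629. High-fat animal 2 and control animals 4 and 6 also had the 3 highest slow fibre and the 3 highest fast fibre sums in TMM-scaled CPM. Without TMM scaling they kept the 3 highest fast fibre sums. The slow fibre sum was then highest in high-fat animal 4 (68285), and control animal 6 had 63584, below control animals 1 and 5 (66182 and 65767). As a mean of log2 levels, the fast fibre markers were highest in control animal 2. The part of fibre content was not tested.

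Hmox1 alone of the genes passed with the macrophage score (r = 0.77, permutation p = 0.00617, adjusted 0.0309; rho = 0.86, p = 0.00117, adjusted 0.0098; r = 0.81 without the 2 farthest animals). The 3 animals with the most Hmox1, high-fat animals 4 and 1 and control animal 1, had summed macrophage marker levels of 1095, 1082 and 1009.5 CPM. High-fat animal 2 and control animal 5, with the least Hmox1, had 290.1 and 346 CPM. High-fat animal 5 had the most macrophage RNA, 1796.5 CPM, and 24.4 CPM of Hmox1. All 11 measured markers of the 12 listed had counts in every library, and the summed level ran from 290.1 to 1796.5 CPM in the high-fat group and from 346 to 1009.5 CPM in the control group. The part of macrophage content in the Hmox1 values was not tested. The Pearson adjusted p was above the threshold without high-fat animal 2 or 3 or control animal 5 or 6 (up to 0.0898). Gpx3 had r = 0.69 with the macrophage score (permutation p = 0.0190, adjusted 0.0632; rho = 0.71, adjusted 0.0670), which did not pass. Its r was 0.72 without the 2 farthest animals, and whether it differs from Hmox1 in this was not tested.

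**Figure D5:**
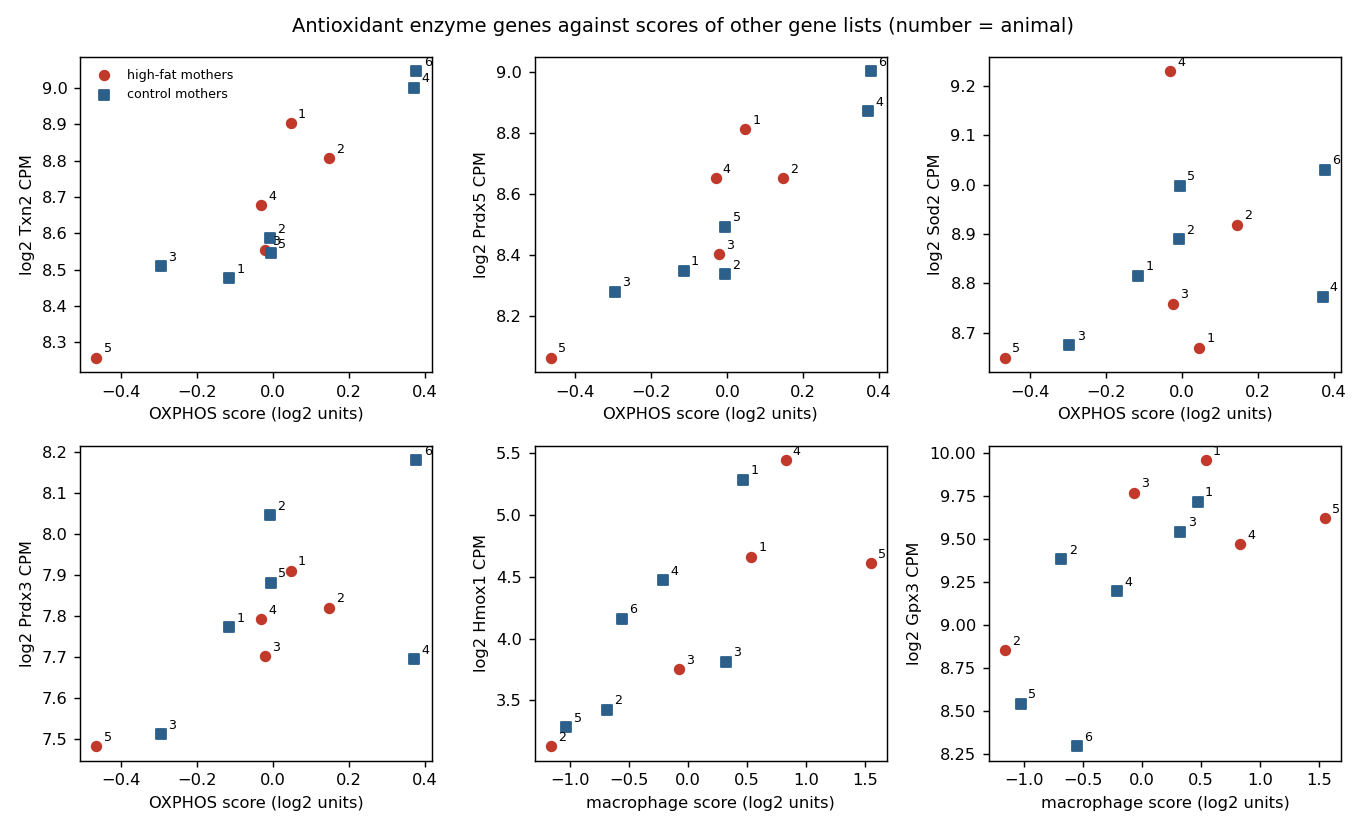
log2 CPM (y axes) of Txn2, Prdx5, Sod2 and Prdx3 against the OXPHOS score and of Hmox1 and Gpx3 against the macrophage score (x axes, log2 units), with high-fat animals as circles and control animals as squares. Txn2 and Prdx5 rise with the OXPHOS score, Sod2 shows more scatter, and Hmox1 rises with the macrophage score.

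Beyond the 10 genes, the tested genes closest in pattern over the 11 animals (highest Pearson's r of log2 CPM, chosen for that r and so given with no test) were Fitm1 and Mrpl37 for Txn2 (0.98 each), Txn2 itself and Hsd17b10 for Prdx5 (0.97 each), and Atp5f1 and Mtch2 for Prdx3 (0.93 and 0.92). For Sod2 they were Pex10 and Pex11a (0.92 and 0.90), for Sod1 C1qbp and Psmb7 (0.91 and 0.90), and for Gpx1 its relative Gpx4 and Map2k2 (0.96 and 0.94). For Gpx3 they were Larp6 and Rnase4 (0.95 each), for Hmox1 Clec10a and Iah1 (0.92 and 0.91), for Cat Ccdc65 and Mettl2 (0.93 each) and for Nqo1 Yaf2 and Bub1 (0.93 and 0.89).

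A wider list of 62 genes of redox defence held 58 tested genes, covering the thioredoxin and glutathione systems, the Nrf2 regulators, iron and metal binding proteins and sources of superoxide. None of the 58 passed edgeR's adjusted test for diet, percent fat or insulin. With HOMA-IR, an index of insulin resistance, in place of insulin, Mt1a passed (0.17 ± 0.027 log2 units per unit, adjusted p = 0.0156), as did 0.277% of all tested genes, and high-fat animal 4 was the highest of the animals in both HOMA-IR (32.1) and Mt1a. For the mother's diet 34 had a higher and 24 a lower mean in the high-fat group (median log2 fold change 0.05, against 0.00 over all tested genes), where 50.9% of all tested genes were higher. An unadjusted p under 0.05 was found for 6 of the 58, against 4.84% of all tested genes. Maff, a small Maf protein that pairs with Nrf2 and its relatives, had 58.8, 26.8, 30.0, 61.4 and 28.6 CPM in high-fat animals 1 to 5, against 18.4 to 30.8 CPM in control animals. High-fat animals 1 and 4 stood apart from all others, and the log2 fold change was 0.76 ± 0.24 (adjusted p = 0.974). Gclc, the catalytic subunit of the enzyme that starts glutathione synthesis, averaged 28.5 ± 8.68 CPM in the high-fat group and 20.9 ± 2.51 CPM in the control group (0.45 ± 0.17, adjusted p = 0.974; 0.27 without high-fat animal 4). Nox4, an oxidase that makes hydrogen peroxide, averaged 7.41 ± 2.29 CPM in the high-fat group and 3.67 ± 2.16 CPM in the control group (1.03 ± 0.37, adjusted p = 0.974). The metal-binding metallothionein gene Mt1a was highest in high-fat animal 4, with 37.2 CPM, against 1.59 to 6.08 CPM in the other 4 high-fat animals and 1.00 to 3.29 CPM in control animals, and its log2 fold change of 2.25 ± 0.73 (adjusted p = 0.974) was 0.66 without that animal. Msrb2, a mitochondrial methionine sulfoxide reductase, was the gene with the smallest p on the lower side, with 8.07, 7.36, 7.37, 7.84 and 6.33 CPM in high-fat animals 1 to 5, against 8.56 to 12.6 CPM in control animals. The groups did not overlap, as in 0.37% of all tested genes, and the log2 fold change was -0.36 ± 0.14 (adjusted p = 0.974).

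Against adiposity, 38 of the 58 had a positive and 20 a negative slope, against 47.4% positive over all tested genes, and 7 had an unadjusted p under 0.05, against 8.64% of all tested genes. Among them were Maff (0.13 ± 0.027 log2 units per percentage point, adjusted p = 0.236), its relative Mafk (0.056 ± 0.014, adjusted p = 0.270), and Sesn3, a stress-induced sestrin (-0.11 ± 0.028, adjusted p = 0.311). DESeq2 called these 3, with adjusted p of 0.0123, 0.0375 and 0.0398, among the 0.573% of all tested genes (62) that it called. The uncoupling protein gene Ucp3 (0.16 ± 0.043, adjusted p = 0.373), Mt1a (0.37 ± 0.13, adjusted p = 0.438), the glutathione synthetase gene Gss (0.051 ± 0.018, adjusted p = 0.459) and Ncf1, a subunit of the phagocyte oxidase (-0.084 ± 0.033, adjusted p = 0.492), were the others. Ncf1 stood at 60.8 CPM in high-fat animal 1, the fattest, and its slope was 0.020 without that animal. Mt1a had a slope of 0.13 without high-fat animal 4. Against insulin, 37 of the 58 slopes were positive and 21 negative, against 48.5% positive over all tested genes, and 5 had an unadjusted p under 0.05, against 3.5% of all tested genes. Mt1a (2.66 ± 0.62 per ng/ml, adjusted p = 0.780; 0.52 without high-fat animal 4), Maff (0.99 ± 0.23, adjusted p = 0.780), Mafk (0.38 ± 0.12, adjusted p = 1.00) and Ucp3 (1.17 ± 0.37, adjusted p = 1.00) had the smallest p values. High-fat animals 1 and 4 had 101 and 120 CPM of Ucp3, against 20.6 to 34.4 CPM in the other 3 high-fat animals and 26.7 to 53.9 CPM in control animals.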

How the data were processed

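Poly(A) RNA of each animal's soleus was sequenced for 36 cycles, per the labels' protocols. The deposited file is 1 table of unnormalized counts, with gene symbols as rows and animals as columns. Tools named without versions in the submitters' processing notes are FastQC, BWA, HTSeq and edgeR. Genome build, annotation and strand setting: not given in the sources used here. Also, short reads can be shared with pseudogenes, of which the RefSeq table lists ones of Sod2, Prdx3 and Txn2. Animals were grouped by the diet label and numbered in accession order, which pairs no animals.

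Genes were kept by filterByExpr with the group, scaled by TMM and tested by edgeR (quasi-likelihood F), with p-values adjusted by Benjamini-Hochberg over all 10814 genes (threshold 0.05). The designs were diet (5 against 6 animals), percent fat (11) and insulin (10). SE is the log2 effect over the square root of F. Correlations used log2 CPM (prior count 2) with 100000 random pairings, two-sided, and adjustment over 45 pairs or 20 score relations. Fits were tested on simulated data. The wider list, markers and members were chosen with earlier results of these data known. Named genes of the wider list were up to 4 per direction and comparison by smallest p among unadjusted p under 0.05, and Gss was added after its values were seen. Alternatives were other scalings, filters, tests, covariates and measures, and leaving out each animal. Count totals set the depth at 10156225 to 15362013 per library, where 3 counts are 0.195 to 0.295 CPM. Promoters of 9 genes came from RefSeq (GRCr8), which may not be the authors' build. edgeR 4.0.16, DESeq2 1.42.0 and limma 3.58.1 ran in R 4.3.3, and correlations in NumPy 2.4.6 under Python 3.11.15.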

Additional observations from a re-analysis of the deposited data

How the results depend on the processing

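None of the 10 genes was called for diet, adiposity or insulin under any alternative run, animals left out included. Over all tested genes, DESeq2 called 7 and the likelihood ratio test 8 for diet, against 0. For adiposity, against 1, DESeq2 called 62, limma voom 2 and log2 of percent fat 2, and the name letter as covariate, total fat in g and abdominal fat in g called 0 each. For insulin, against 0, DESeq2 called 6 and HOMA-IR 30. Without 1 animal the counts ran from 0 to 2 for adiposity and from 0 to 3 for insulin. Pnpla2, the gene called for adiposity, passed in 2 of these 11 fits, without high-fat animal 2 or 3, and its adjusted p was up to 0.320 in the others.

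Signs that turned were all of uncalled estimates (log2 units). For diet, Sod2 was 0.024 with library size scaling and Cat 0.043 with the name letter. For adiposity, Sod2 was -0.0058 with library size scaling, Cat 0.00064 with total fat in g, and Cat, Gpx1 and Prdx3 were 0.011, -0.00026 and -0.00067 with abdominal fat in g. For insulin with diet as covariate, Sod1 was -0.017, Cat 0.034, Prdx5 -0.059 and Nqo1 0.13. Cat was 0.045 and Txn2 0.039 with library size scaling, Cat 0.0037 with limma voom, Cat 0.058 and Nqo1 0.0087 with the name letter, Cat 0.013 and Nqo1 0.0020 with HOMA-IR, Prdx3 -0.0071 and Prdx5 -0.0032 with upper quartile scaling, and Txn2 0.0045 with log2 of insulin. The cause of these turns was not tested.

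Without 1 animal, diet estimates ran from -0.13 to 0.039 for Cat, -0.062 to 0.64 for Hmox1, -0.12 to 0.056 for Prdx5, -0.12 to 0.042 for Sod2 and -0.13 to 0.027 for Txn2. They kept their sign but moved by over 1.5 times for Sod1 (0.0043 without high-fat animal 1 to 0.12 without high-fat animal 5), Gpx1 (-0.22 without high-fat animal 1 to -0.058 without high-fat animal 4) and Prdx3 (-0.18 without control animal 3 to -0.044 without control animal 6). The same held for Nqo1 (-0.33 without control animal 4 to -0.090 without control animal 1) and Gpx3 (0.25 without control animal 6 to 0.52 without high-fat animal 2). Adiposity slopes ran from -0.022 to 0.041 for Cat, -0.024 to 0.049 for Gpx3, -0.038 to 0.021 for Nqo1, -0.0060 to 0.058 for Sod2 and -0.10 to 0.020 for Ncf1. Insulin slopes ran from -0.14 to 0.073 for Cat, -0.33 to 0.97 for Hmox1, -0.23 to 0.13 for Nqo1, -0.070 to 0.079 for Prdx3, -0.063 to 0.11 for Prdx5, -0.11 to 0.17 for Sod2 and -0.094 to 0.061 for Txn2. Pairs passing by Pearson's r numbered 2 to 6, against 4, and by rank 0 to 5, against 3. Score relations passing numbered 2 to 7, against 5, and by rank 3 to 6, against 3. No share over other tested genes was computed beside these pair and score counts. The r of Prdx5 with Txn2 (0.96 to 0.98), Txn2 with the OXPHOS score (0.89 to 0.95) and Prdx5 with it (0.87 to 0.94) passed in every such fit by Pearson's r. Mean CPM of each of the 10 genes moved by less than 1 SD under RLE or library size scaling. A mean over all 11 libraries can hardly move with the scaling, so this says nothing on the spread. With library size scaling the SD over animals fell for Sod1, Gpx1, Prdx3, Prdx5 and Txn2 (from 70.5 to 42.2 CPM for Txn2). It rose for the other genes (from 75.5 to 82.6 CPM for Cat). No paired analysis was possible because the labels give no replicate numbers that groups share, and nothing says that the numbers in the deposited column names pair animals. The lowest count among the 10 genes was 82, and whether depth or the number of animals limited precision more was not tested.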
